A study of Homo sapiens with 10 samples.

Results

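This account follows 8 human genes of major histocompatibility complex (MHC) class II antigen presentation, HLA-DRA, HLA-DPA1, HLA-DPB1, HLA-DMA, HLA-DMB, HLA-DOA, CD74 and CIITA, across 10 arrays. They were chosen by name from measured values, because the group went in opposite directions after OR21 in MDSL and SKM1 cells and was high in the resistant derivatives of HL60. Those values are therefore given as a description with no test. The array annotation named a probe set for 7 of the 8, out of 17687 named genes in all. No level of HLA-DMB is given here, and only its promoter was searched.

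RNA came from 4 established human myeloid cell lines. MDSL and SKM1 derive from myelodysplastic syndrome, HL60 from acute and K562 from chronic myeloid leukaemia. Every line was profiled untreated and after 96 hours with OR21 (OR-2100, a hypomethylating agent), with 1 array per condition. The dose was 100 nM for MDSL and SKM1, and 500 nM for the leukaemia lines. A further 2 arrays held an AZA resistant and an OR21 resistant derivative of HL60, both listed as controls and neither as OR21 treated. The labels do not say how the derivatives were selected or whether either is 1 clone. The medium listed for MDSL held interleukin-3, and none is listed for K562 in the labels read here. The design text states that treated and untreated cells were compared to learn the effect of the compound.

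MHC class II molecules are pairs of an alpha and a beta chain that hold peptides from the endosome and show them to CD4+ T cells. They are made mainly by dendritic cells, B cells and macrophages, and by part of the myeloid progenitors, and they are usually lost as cells become granulocytes. The invariant chain CD74 occupies the peptide groove until the endosome, HLA-DM then helps to exchange its last fragment for peptide, and HLA-DO restrains HLA-DM. The co-activator CIITA drives class II genes. It does not bind DNA itself. It docks on factors that sit on the X box (the RFX complex and CREB-type factors) and the Y box (NF-Y) of class II promoters.

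These boxes are known elements of class II promoters, and not every window printed below held a match to both. The windows here lie upstream of the annotated transcription start in RefSeq promoters (GRCh38.p14). They are shown because HLA-DPA1, HLA-DPB1, HLA-DMA, CD74 and HLA-DRB1 had related patterns on the arrays and HLA-DOA did not. For HLA-DPA1 the window comes from 1 of its 2 promoters. Capitals mark AGNNACNGA, a loose spelling of part of the X box, and ATTGG, the core of the Y box, or its other strand CCAAT.
HLA-DPA1 (chr6:33073699-33073766, minus strand): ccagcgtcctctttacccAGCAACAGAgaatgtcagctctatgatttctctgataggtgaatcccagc
HLA-DPB1 (chr6:33075843-33075910, plus strand): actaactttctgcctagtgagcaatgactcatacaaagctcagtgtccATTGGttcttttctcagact
HLA-DMA (chr6:32953157-32953224, minus strand): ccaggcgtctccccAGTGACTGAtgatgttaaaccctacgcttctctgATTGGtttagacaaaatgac
HLA-DOA (chr6:33009639-33009706, minus strand): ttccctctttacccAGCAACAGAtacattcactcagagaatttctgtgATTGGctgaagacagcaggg
CD74 (chr5:150412944-150413011, minus strand): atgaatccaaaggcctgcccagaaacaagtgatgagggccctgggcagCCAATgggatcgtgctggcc
HLA-DRB1, a class II chain outside the 8 genes (chr6:32589875-32589942, minus strand): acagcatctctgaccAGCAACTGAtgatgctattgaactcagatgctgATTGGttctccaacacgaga

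Promoter sequences were at hand for 6 of the 8 genes, which made 7 windows. Over windows of 300 bases, both strands searched, ATTGG was found in 5 of 7 member windows and in 34.6% of 35116 promoters. GCAAC, part of an X1 box, was in 3 of 7 and in 33.6% of all promoters, the longer GCAACAG in 2 of 7 and 4.33%, and TGACG, part of an X2 box, in 4 of 7 and 24.6%. GCAAC lies within GCAACAG, so these matches overlap. AGNNACNGA was in 4 of 7 and in 15.3%, a spelling chosen after these promoters were read. On 1 strand, AGNNACNGA followed by ATTGG with starts 15 to 45 bases apart was in 2 of 7 windows, those of HLA-DMA and HLA-DOA, and in 0.402% of all promoters. The same search with GCAAC matched 1 of 7, HLA-DOA, and 1.11% of all.

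Values are probe set intensities on the log2 scale, so a difference of 1 is a 2-fold difference. Each array also has its own background level, the median of 23 background probe sets, which was 4.98 for untreated MDSL and between 5.41 and 5.43 elsewhere. A value at or under that level shows only that the gene was not above background. Gene medians lay between 6.63 and 7.05. The 4 hybridisation spikes averaged 11.71 log2 on the array of treated HL60 and 10.85 to 11.10 elsewhere, so this array stands apart. Identity markers were listed for HL60 and K562 only. Of the promyelocyte markers MPO, AZU1, PRTN3 and CTSG the mean level was 14.95 in control HL60, 13.74 in control SKM1, 10.63 in control MDSL and 5.35 in control K562, and of 5 erythroid genes it was 11.72 in control K562 and 5.52 to 6.48 in the other controls.

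HLA-DRA, the alpha chain of HLA-DR, was highest in MDSL and lowest in K562. Its levels were 16.42 log2 in control and 15.19 in OR21-treated MDSL, 13.36 in control and 14.76 in treated SKM1, and 6.64 in control and 7.05 in treated HL60. In K562 it was not above background, at 3.79 and 3.62. The AZA resistant and OR21 resistant derivatives stood at 13.09 and 13.17, close to control SKM1 and far above the HL60 array they descend from. Its percentile among the genes of the array was 99.7 in control MDSL, 49.9 in control HL60, and 95.4 and 95.5 in the derivatives.

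HLA-DPA1 and HLA-DPB1, the alpha and beta chains of HLA-DP, followed the same order of lines. HLA-DPA1 was at 12.13 log2 in control and 10.47 in treated MDSL, 6.84 and 8.81 in SKM1, and 8.98 and 9.53 in the AZA resistant and OR21 resistant derivatives. It was not above background in control or treated HL60 (3.25 and 3.72) and K562 (3.17 and 2.76). HLA-DPB1 was at 15.17 and 13.40 in MDSL, 10.20 and 12.08 in SKM1, 5.63 and 6.03 in HL60, 4.88 and 5.55 in K562, and 10.66 and 10.73 in the derivatives. The derivatives lay above both HL60 arrays for both chains. For HLA-DPB1 they fell between the SKM1 arrays, and for HLA-DPA1 above both of them.

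CD74, the invariant chain, was the only measured member above the gene median in parental HL60. Its levels were 14.64 log2 in control and 13.46 in treated MDSL, 12.10 and 14.17 in SKM1, 9.42 and 9.23 in HL60, and 5.21 and 5.34 in K562, where both lay under background. The derivatives had 12.03 and 12.67. HLA-DMA, the alpha chain of the peptide editor HLA-DM, was at 13.17 and 12.45 in MDSL, 9.02 and 11.06 in SKM1, 6.43 and 7.21 in HL60, and 4.69 and 4.92 in K562. In the derivatives it was at 8.65 and 8.84, just under control SKM1.

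CIITA, the co-activator, was above the gene median on only 3 of the 10 arrays. It stood at 11.10 log2 in control MDSL, 8.34 in treated MDSL and 7.73 in treated SKM1. It was at 5.91 in control SKM1, 5.95 in the AZA resistant and 6.60 in the OR21 resistant derivative, all above background but under the gene median of their array. In control and treated HL60 it read 5.35 and 5.38 and in K562 4.65 and 5.01, not above background. On all 3 arrays with HLA-DRA between 13.09 and 13.36, CIITA was thus below the middle of all genes.

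HLA-DOA, the alpha chain of HLA-DO, did not behave as the other members did. Its levels ran from 4.86 to 5.56 log2 and were above background on 2 of 10 arrays, treated HL60 and treated SKM1, by at most 0.14. It differed by 0.27 in MDSL and 0.38 in SKM1, the same direction in both, and by -0.15 and -0.01 in the derivatives. The pattern that chose the group does not hold for it, and its promoter window above carries both marked motifs. The other 6 measured members were lower in MDSL and higher in SKM1, though HLA-DMA fell short of 2-fold in MDSL (-0.72). CIITA was above background in the derivatives but under the gene median.

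**Figure D1:**
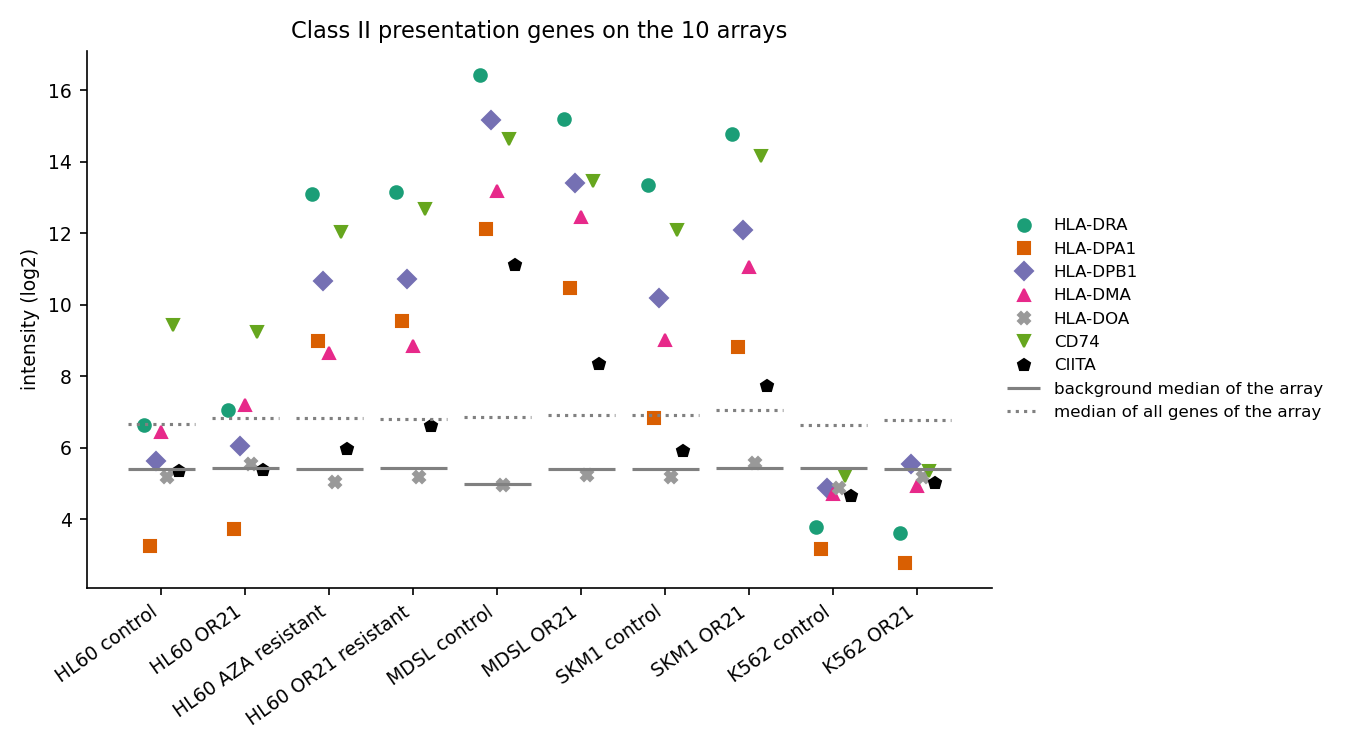
Log2 intensity (vertical axis) of the 7 measured class II presentation genes on each of the 10 arrays (horizontal axis), 1 point per gene and array. Solid grey lines mark the background median and dotted lines the median of all genes of each array. HLA-DRA runs from 3.62 in treated K562 to 16.42 in control MDSL, and HLA-DOA (grey crosses) stays between 4.86 and 5.56.

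In MDSL, OR21 at 100 nM went with lower class II levels, and in SKM1 at the same dose with higher ones. CIITA had the largest difference in MDSL, -2.77 log2, the 19th lowest of 17687 genes. HLA-DPB1 differed there by -1.76, HLA-DPA1 by -1.65, HLA-DRA by -1.24, CD74 by -1.18 and HLA-DMA by -0.72. In SKM1 the differences were 2.08 for CD74, 2.04 for HLA-DMA, 1.98 for HLA-DPA1, 1.88 for HLA-DPB1, 1.82 for CIITA and 1.40 for HLA-DRA. As folds, HLA-DRA was 2.35-fold lower in treated than in control MDSL and 2.64-fold higher in treated than in control SKM1.

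By size, 5 of 7 members were at least 2-fold lower in MDSL, where 4.88% of all genes were, and 0 were higher, against 6.62%. In SKM1 6 of 7 were at least 2-fold higher, where 7.10% of all genes were, and 0 were lower, against 4.47%. These comparisons chose the genes, so nothing is read from the counts. Both conditions together were met by 16 of 17687 genes (0.0905%), 5 of them members, and the opposite pair by 15 genes (0.0848%), 0 of them members. Each condition had 1 array, so the differences have no replicate check. Markers of other cells and stages moved in the same pairs of arrays. In treated MDSL 4 of 5 erythroid genes were at least 2-fold higher (6.62% of all genes). With levels under background raised to it 3 were (6.08%). The list mean went from 6.48 to 8.04, and GATA1, an erythroid transcription factor, from 10.99 to 12.88. The granule enzyme MPO went there from 8.62 to 13.11, while the other promyelocyte markers AZU1, PRTN3 and CTSG differed by -0.56, -0.21 and 0.13. The progenitor receptors FLT3 and KIT went from 8.84 to 5.33 and from 12.54 to 10.55, while the progenitor marker GATA2 was higher by 1.49. In SKM1 GATA1 went from 6.49 to 10.29, the only 1 of the 5 erythroid genes at least 2-fold higher (7.10% of all genes). There 2 of the 4 promyelocyte markers were at least 2-fold lower (4.47% of all genes). FLT3 and KIT went from 10.31 to 6.27 and from 12.55 to 10.17, while GATA2 and CD34 of the same list were higher by 2.88 and 2.1. The part of these in the class II values was not tested. In bulk RNA, fewer cells that express class II and less class II RNA per cell cannot be told apart.

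The levels of MDSL and SKM1 can also be set against each other within a condition. Control MDSL lay above control SKM1 by 5.29 log2 for HLA-DPA1, 5.19 for CIITA, 4.97 for HLA-DPB1, 4.15 for HLA-DMA, 3.06 for HLA-DRA and 2.54 for CD74. Between the treated arrays the same gaps were 1.66, 0.60, 1.32, 1.38, 0.42 and -0.71, the last with SKM1 above MDSL. The gap narrowed by 4.58 for CIITA and by 2.64 for HLA-DRA. Among all 566 genes with a control gap of 2 log2 or more in this direction, the median gap went from 2.78 to 2.25 and 34.8% narrowed by 1 log2 or more. The narrowing is the SKM1 difference minus the MDSL difference, the contrast that chose the genes, so nothing is read from it against that share.

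**Figure D2:**
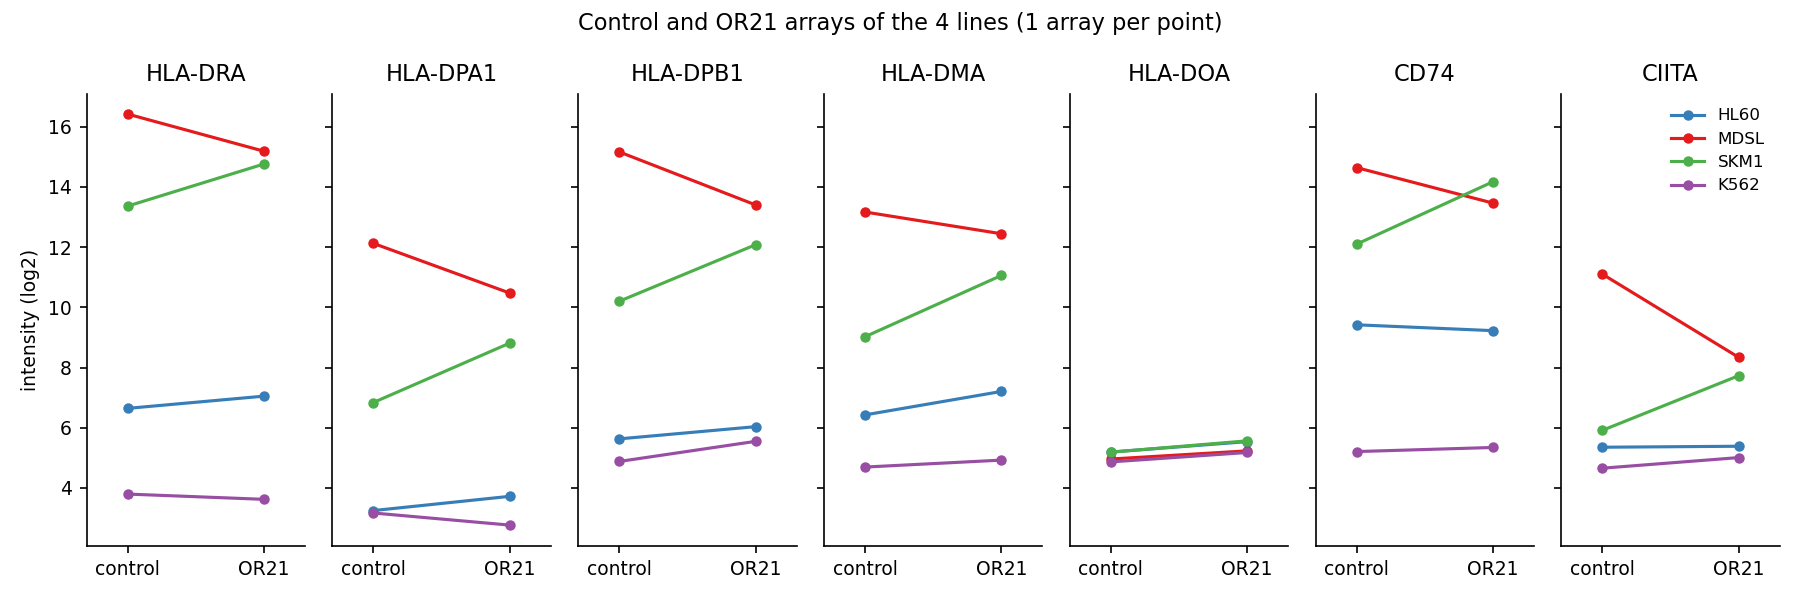
Log2 intensity (vertical axis) on the control and the OR21 array of each line, 1 panel per gene, 1 array per point and 1 colour per line. The OR21 point is lower in MDSL and higher in SKM1 in the panels of HLA-DRA, HLA-DPA1, HLA-DPB1, HLA-DMA, CD74 and CIITA. In K562 and HL60 no gene differs by 2-fold. HLA-DMA differs by 0.78 in HL60 and by -0.72 in MDSL.

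The choice of genes did not use the arrays of OR21-treated HL60 and K562, both at 500 nM, and these responses were put to a test. The HL60 response is not fully apart from the choice. Its control is the array against which the derivatives were set. None of the 7 members differed by 2-fold in either line, against 10.2% of all genes higher and 11.1% lower in HL60, and 5.05% higher and 3.86% lower in K562. In HL60 the differences were 0.78 log2 for HLA-DMA, 0.47 for HLA-DPA1, 0.41 for HLA-DRA and for HLA-DPB1, 0.35 for HLA-DOA, 0.03 for CIITA and -0.19 for CD74. In K562, where the controls of all 7 were at or under background, they ran from -0.40 for HLA-DPA1 to 0.67 for HLA-DPB1. In limma with the line as a block, 0 of 7 members passed an adjusted p of 0.05, and 0 did so at an unadjusted p under 0.05. Of all genes 0.00% passed after adjustment, and 1590 (8.99%) had an unadjusted p under 0.05. With 1 residual degree of freedom this fit called no gene on simulated data, even those given large changes, so the 0 says nothing about the members.

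HLA-DPB1 had the largest mean difference over these 2 lines, 0.54 log2 with a 95% confidence interval from -0.30 to 1.37 (limma, adjusted p = 0.637), higher in 2 of 2 lines. HLA-DMA had 0.51 (-0.38 to 1.39, adjusted p = 0.672 in limma), higher in HL60. HLA-DRA had 0.12 (-0.78 to 1.01, adjusted p = 0.949 in limma), higher in HL60, and CIITA 0.19 (-0.65 to 1.03, adjusted p = 0.888 in limma). HLA-DPA1 had 0.04 (-0.95 to 1.03, adjusted p = 0.989 in limma) and HLA-DOA 0.33 (-0.49 to 1.15, adjusted p = 0.771 in limma). For CD74 the mean was -0.03, with an interval from -0.87 to 0.81 (limma, adjusted p = 0.989). HLA-DPA1 and CIITA were under background on all 4 of these arrays, so their intervals do not limit a change in RNA. On both K562 arrays HLA-DRA, HLA-DMA, HLA-DOA and CD74 were not above background either. Their K562 values give no direction, and their intervals do not limit a change there. The HL60 values rest on the array that stood apart in its spikes. Scaled to the spikes, HLA-DRA and HLA-DPB1 differed in HL60 by -0.36, CIITA by -0.73, CD74 by -0.96 and HLA-DMA by 0.02, and 0 of 7 members passed 2-fold in either direction.

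Over all 4 lines, the members had means near 0 with a wide spread between lines. HLA-DRA differed by 0.10 ± 1.10 log2 (SD, n = 4 lines), HLA-DPA1 by 0.10 ± 1.52, HLA-DPB1 by 0.30 ± 1.52, CD74 by 0.21 ± 1.36, HLA-DMA by 0.58 ± 1.15 and CIITA by -0.14 ± 1.91. HLA-DOA differed by 0.33 ± 0.05, the same direction in 4 of 4 lines, but at levels near background. No test is given for these means, because 2 of the 4 lines served to choose the genes.

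The resistant HL60 derivatives had far higher class II levels than parental HL60. HLA-DRA was higher than in parental HL60 by 6.45 log2 in the AZA resistant derivative (87.2-fold) and by 6.52 in the OR21 resistant derivative (92.0-fold), the 17th and 16th largest differences of all genes. HLA-DPB1 was higher by 5.03 and 5.10 (32.6-fold and 34.3-fold), with a parental level only just above background. HLA-DPA1 was under background in parental HL60, so its differences of 5.74 and 6.29 are given as bounds, at least 11.9-fold and at least 17.4-fold higher. CD74 was higher by 2.62 and 3.25 and HLA-DMA by 2.22 and 2.41.

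CIITA was under background in parental HL60, so its differences of 0.60 log2 in the AZA resistant and 1.24 in the OR21 resistant derivative are given as bounds, at least 1.46-fold and at least 2.27-fold. By size, 5 of 7 members were at least 2-fold higher in the AZA resistant derivative, where 7.04% of all genes were, and 6 of 7 in the OR21 resistant one, where 7.69% were. With a pseudocount of 16, CIITA fell short of 2-fold in the OR21 resistant derivative. In neither derivative was a member 2-fold lower, against 5.11% and 4.27% of all genes. Higher by 2-fold in both derivatives were 5 of 7 members and 5.82% of all genes. The pattern of MDSL, SKM1 and both derivatives together was met by 4 of 7 members and by 6 genes in all (0.0339%). The level in the derivatives was part of the choice, so no support is drawn from these counts. OR21 resistant cells lay above AZA resistant cells by 0.64 for CD74 and CIITA, 0.55 for HLA-DPA1, 0.19 for HLA-DMA and 0.08 or less for HLA-DRA and HLA-DPB1. Both derivatives were set against the same parental array, which is also the control of treated HL60. Promyelocyte markers differed in the same comparisons, their list mean being 14.95 in parental HL60 and 12.95 and 12.88 in the derivatives. In each derivative 2 of the 4 were at least 2-fold lower (5.11% and 4.27% of all genes), AZU1 by -2.52 and -2.58 and PRTN3 by -4.15 and -3.88. In treated HL60 the mean was 12.48, with 4 of 4 at least 2-fold lower (11.1% of all genes). Their part in the class II levels was not tested.

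Treated parental HL60 did not have these levels. The level of HLA-DRA after 96 hours of OR21 was 7.05 log2 against 13.09 and 13.17 in the derivatives, that of HLA-DPB1 6.03 against 10.66 and 10.73, and that of HLA-DPA1 3.72 against 8.98 and 9.53. In the same treated cells, CD86, a costimulator of T cells, went from 6.43 to 12.15, and the monocyte receptor CD14 from 7.64 to 14.60. CD86 was at 8.56 and 9.48 in the derivatives, and CD14 at 8.01 and 10.70.

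The class II genes sit in a run on chromosome 6 with genes of MHC class I processing among them. In the map order of RefSeq, 16 named genes on the array lie from HLA-DRA to HLA-DPB1, of which 10 are class II chains. In MDSL 6 of the 10 chains were at least 2-fold lower (4.88% of all genes) and 0 higher (6.62%). In SKM1 6 were higher (7.10% of all genes) and 0 lower (4.47%). In the AZA resistant and OR21 resistant derivatives 5 and 6 were higher (7.04% and 7.69% of all genes). These include HLA-DRB5, which was not above background in parental HL60, and with levels under background raised to it the counts were 4 and 5. These 4 comparisons chose the members among these chains, so nothing is read from the counts. The 6 genes between them (TAP1 and TAP2, the peptide transporter of class I, the immunoproteasome subunits PSMB8 and PSMB9, PSMB8-AS1 and BRD2) had medians of 0.18 in MDSL, 0.05 in SKM1, -0.19 in the AZA resistant and 0.06 in the OR21 resistant derivative. Of these 6, TAP1 was higher by 1.04 in MDSL and PSMB9 by 1.42 in the OR21 resistant derivative. In those 4 comparisons 0 were lower by 2-fold, against 4.27% to 5.11% of all genes per comparison. This run of genes was taken up after the values were known.

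**Figure D3:**
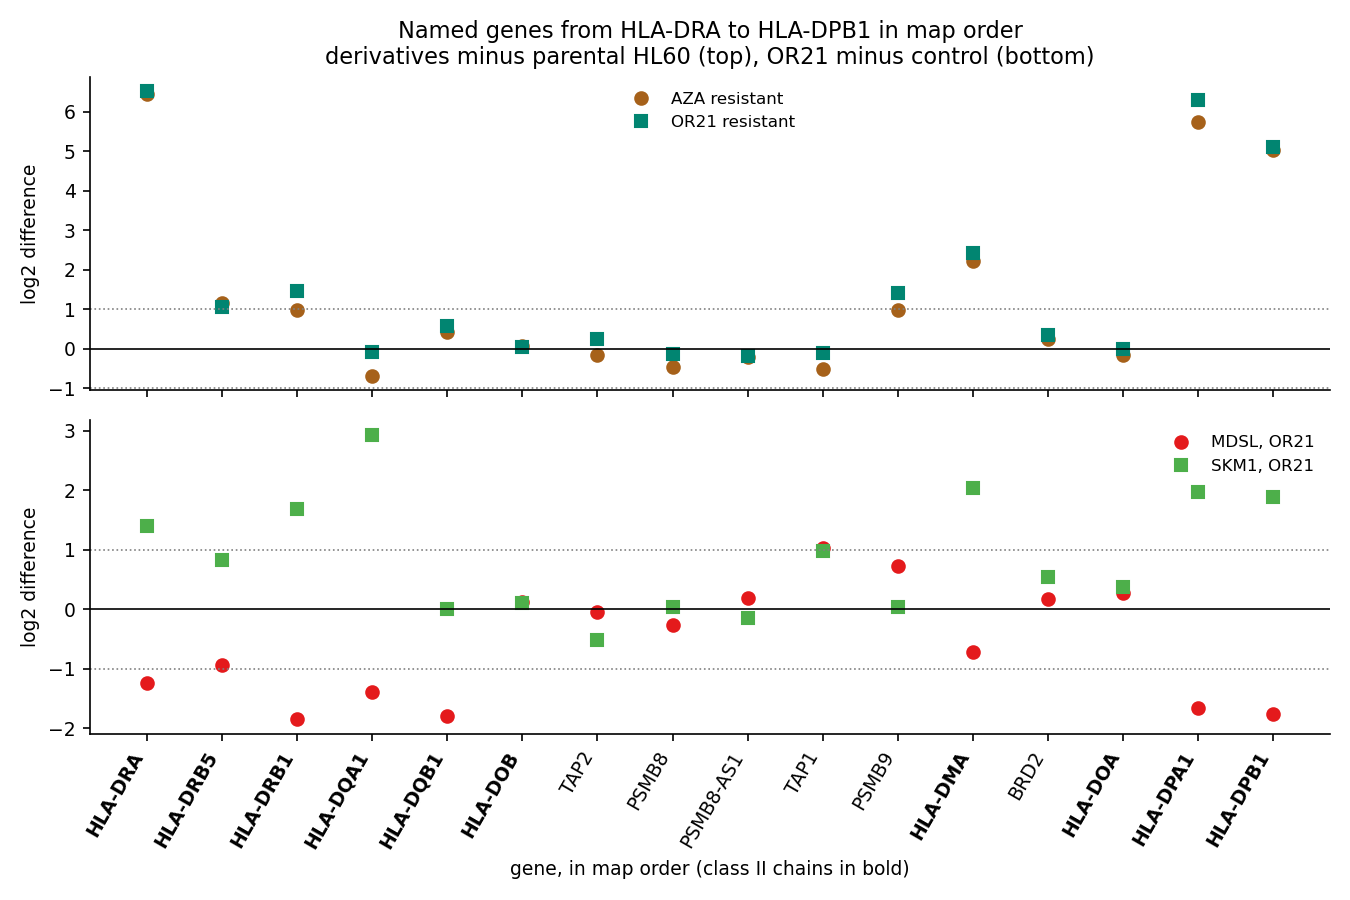
Log2 difference (vertical axis) of the 16 named genes from HLA-DRA to HLA-DPB1 in map order (horizontal axis, class II chains in bold), for each derivative against parental HL60 (top) and for OR21 against control in MDSL and SKM1 (bottom). Dotted lines mark 2-fold. In the top panel the tall points are HLA-DRA, HLA-DPA1 and HLA-DPB1 (5.03 to 6.52), with HLA-DMA at 2.22 and 2.41 and the other 6 genes between -0.52 and 1.42.

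Other class II chains, which were not members, shared the pattern only in part. HLA-DRB1, the beta partner of HLA-DRA, was at 12.90 log2 in control and 11.05 in treated MDSL, 8.05 and 9.74 in SKM1, and 5.65 and 4.56 in HL60, and read 6.62 and 7.12 in the derivatives. HLA-DQA1 was at 7.95 and 6.57 in MDSL and at 6.64 and 9.58 in SKM1, the largest SKM1 difference of any class II chain (2.94). In the derivatives it was not above parental HL60, differing by -0.69 and -0.09. HLA-DRB5, a further beta chain, was at 7.58 and 6.65 in MDSL and at 5.65 and 6.47 in SKM1. It was not above background in parental HL60 (4.35) and the OR21 resistant derivative (5.39) and only just above in the AZA resistant one (5.49). HLA-DOB, the beta partner of HLA-DOA, was not above background on any of the 10 arrays, at 3.92 to 4.98. In limma over the 4 lines 0 of these 5 chains passed, with adjusted p from 0.676 for HLA-DOB to 0.963 for HLA-DRB5. HLA-DRB and HLA-DQ genes differ between people and between near-identical copies, and the part this has in their signals was not tested.

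The factors that bind the class II promoters were above the gene median on every array. RFX5, a subunit of the RFX complex, was at 9.82 log2 in control and 8.74 in treated HL60, 8.95 and 8.40 in K562, 11.50 and 11.14 in MDSL, 11.81 and 11.99 in SKM1, and 10.45 and 10.60 in the derivatives. Its partner RFXAP had the largest mean difference of the list, -0.89 ± 0.58 (SD, n = 4 lines; limma, adjusted p = 0.156), lower in 4 of 4 lines, and differed by -1.15 and -1.65 in the derivatives. NFYC, a subunit of NF-Y, differed by 0.49 ± 0.46 and RFXANK by -0.36 ± 0.30. In limma 0 of these 7 factors passed, where 0.0396% of all genes did. At an unadjusted p under 0.05 1 of them did (RFXAP), against 19.1% of all genes. By size, 0 of 7 passed 2-fold in MDSL, against 6.62% of all genes higher and 4.88% lower. In K562 0 did, against 5.05% higher and 3.86% lower. In SKM1 1 was higher and 1 lower (7.10% and 4.47% of all genes). In HL60 2 were lower (11.1%), and RFXAP alone was lower in each derivative (5.11% and 4.27%).

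Genes known to act on CIITA transcription were read next. IRF8, a transcription factor of monocytes and dendritic cells, was at 10.47 log2 in parental HL60, 14.14 and 14.10 in the derivatives and 8.79 in treated HL60. Its level was 4.66 and 5.05 in MDSL, not above background, and 11.03 and 10.03 in SKM1. JAK2, a kinase of interferon gamma signalling, was higher in the derivatives by 2.32 and 2.27. IRF1, an interferon-induced activator of CIITA, was at 11.63 in control and 10.71 in treated MDSL, 7.96 and 8.07 in SKM1, 8.17 and 9.39 in HL60, 5.70 and 6.59 in K562, and 8.15 and 8.64 in the derivatives. SPI1 (PU.1), a transcription factor of myeloid cells, went from 11.38 to 12.30 in SKM1. It was at 11.38 to 12.30 on all HL60, MDSL and SKM1 arrays and at 7.51 and 7.35 in K562.

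In the same list PRDM1, a repressor of CIITA in plasma cells, went from 6.55 to 10.19 in treated HL60 and differed by -0.63 in MDSL and 0.68 in SKM1. EZH2, a histone methyltransferase, differed by -0.90 ± 0.67 (SD, n = 4 lines) and was lower in 4 of 4 lines. JAK1 differed by 0.96 ± 0.64 and the receptor subunit IFNGR1 by 0.92 ± 0.78. Of the 11 measured regulators 0 passed in limma over the 4 lines, with adjusted p from 0.156 for JAK1 to 0.825 for IRF4. By size, treated HL60 had 6 of 11 at least 2-fold higher (10.2% of all genes) and IRF8 lower (11.1%). SKM1 had 2 higher (7.10%), and MDSL 0 higher (6.62%) and EZH2 lower (4.88%). Each derivative had 2 higher (7.04% and 7.69%), JAK2 and IRF8, and 0 lower (5.11% and 4.27%).

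A list of 13 genes of endosomal processing held the proteases that cut antigen and the invariant chain, the cathepsin inhibitor CST3 and the ubiquitin ligases MARCHF1 and MARCHF8. After OR21, 8 of 13 were at least 2-fold higher in HL60 (10.2% of all genes), 7 in SKM1 (7.10%), 3 in MDSL (6.62%) and 1 in K562 (5.05%). Against parental HL60 it was 8 in the AZA resistant (7.04%) and 9 in the OR21 resistant derivative (7.69%). At least 2-fold lower were CTSC in K562 (14.87 to 13.66) and CTSD in the AZA resistant derivative (11.87, against 12.87 in parental HL60). Of all genes 3.86% and 5.11% were lower in these comparisons. The count in HL60 includes CST3 (1.95) and that in SKM1 MARCHF8 (1.25), neither of them a protease. CTSS, the cathepsin that makes the last cuts in CD74, was at 12.24 log2 in control and 14.27 in treated HL60, 12.83 and 14.20 in SKM1, 13.59 and 13.39 in MDSL, 8.68 and 7.73 in K562, and 14.11 and 14.35 in the derivatives. CTSH went from 3.72, under background, to 9.72 in treated HL60 and stood at 7.46 and 8.76 in the derivatives. Over the 4 lines CTSD differed by 1.63 ± 0.75, SPPL2A, which cleaves the CD74 stub, by 1.63 ± 0.87 and CTSB by 1.48 ± 0.64 (SD, n = 4 lines), each higher in 4 of 4 lines. In limma 0 of 13 passed, the smallest adjusted p being 0.115 for CTSB and CTSD. The list median was 0.45 in MDSL, where the class II median was -1.24.

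CD86 and other costimulatory genes were measured on the same arrays. CD86 differed by 5.71 log2 in HL60, 2.80 in SKM1, 0.80 in MDSL and -0.20 in K562, and by 2.13 and 3.05 in the derivatives. CD58, an adhesion ligand of T cells, differed by 1.16 ± 0.83 (SD, n = 4 lines), higher in 4 of 4 lines. CD48 was higher by 1.93 in HL60 and 2.11 in MDSL, and ICOSLG differed by -1.66 in MDSL. By size, HL60 had 4 of 10 costimulation and adhesion genes 2-fold higher (10.2% of all genes) and 0 lower (11.1%). MDSL had 2 higher (6.62%) and 1 lower (4.88%), and SKM1 3 higher (7.10%) and 0 lower (4.47%). K562 had 0 higher (5.05%) and 0 lower (3.86%). Against parental HL60, 3 were at least 2-fold higher in each derivative (7.04% and 7.69% of all genes). At least 2-fold lower were CD83 and CD48 in the AZA resistant (5.11%) and CD83 in the OR21 resistant derivative (4.27%). With levels under background raised to it, 2 were higher in each (5.77% and 6.48%). Of the 10, 0 passed in limma over the 4 lines, with adjusted p from 0.136 for TNFSF4 to 0.942 for CD83.

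Targets of interferon gamma, a strong inducer of CIITA, had median differences of 0.0041 in the AZA resistant and -0.0033 in the OR21 resistant derivative. The all-gene medians were -0.02 and -0.07 and the class II medians 2.62 and 3.25. The OR21 resistant median of the targets is the value of CXCL9, which was not above background on any array. GBP1, GBP5, CXCL10 and CXCL11 were also not above background in parental HL60. These medians therefore do not show that the targets were unchanged. In MDSL the target median was 0.36 and in SKM1 0.23. GBP2 went from 5.75 to 10.51 log2 and CXCL11 from 4.07 to 8.83 in treated HL60, where HLA-DRA differed by 0.41. In the derivatives GBP2 differed by 0.51 and 0.63 and FCGR1A, a Fc receptor, by 3.31 and 2.95. NLRC5, the class I counterpart of CIITA, was at 6.05 in parental HL60, 7.00 after OR21 and 5.40 and 5.75 in the derivatives. PSMB9 was higher by 3.72 in K562 and GBP5 by 2.21 in HL60. By size, 3 of 15 targets were at least 2-fold higher in the AZA resistant derivative (7.04% of all genes) and 5 in the OR21 resistant one (7.69%). In both 0 were lower (5.11% and 4.27%). The 5 were GBP1, CXCL10, APOL1, FCGR1A and PSMB9. With levels under background raised to it, the counts were 1 and 4 (5.77% and 6.48% of all genes). In limma 0 of 15 targets passed, with adjusted p from 0.194 for GBP2 to 0.850 for IDO1.

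**Figure D4:**
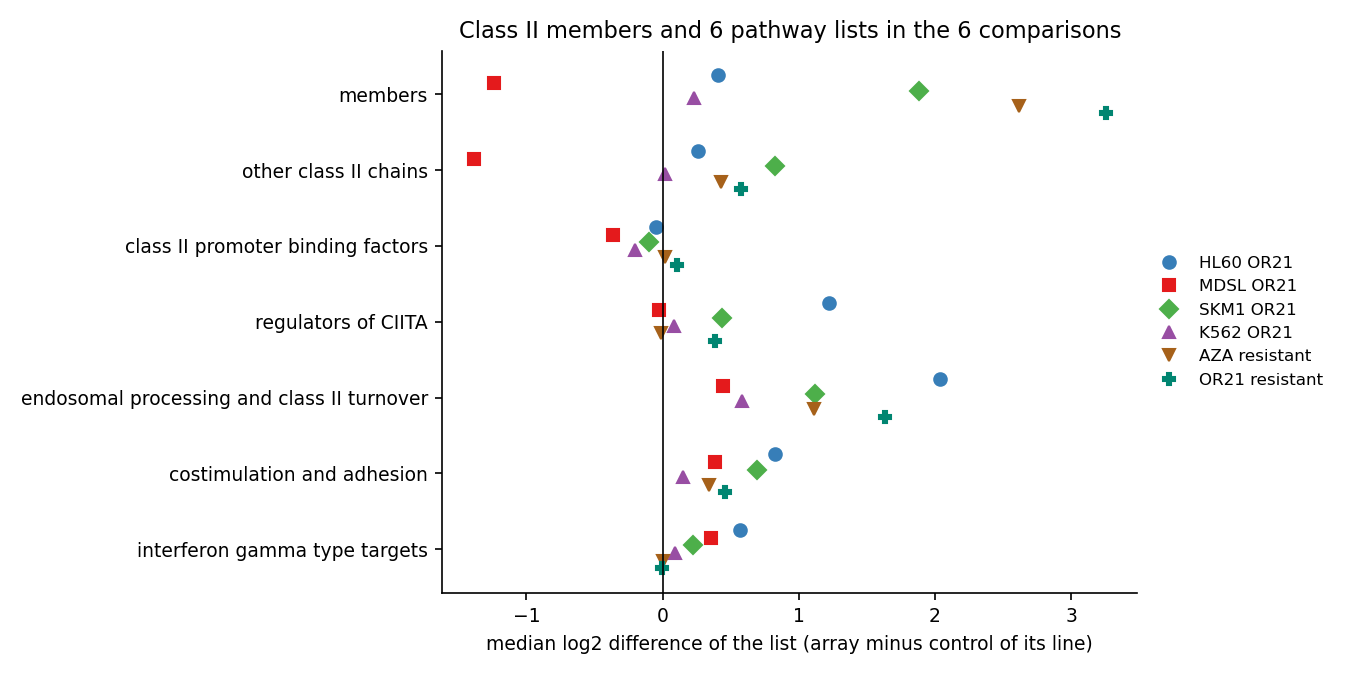
Median log2 difference (horizontal axis) of the 7 measured members and of 6 pathway lists (vertical axis) in 6 comparisons, each against the control of its line, 1 symbol per comparison. The members and the other class II chains have medians of -1.24 and -1.38 in MDSL, whereas the endosomal list lies above 0 in all 6 comparisons and reaches 2.04 in treated HL60.

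Markers of other cells that carry class II were read on the same arrays, and their part in the class II values was not tested. Of 7 measured B lymphocyte markers, MS4A1 and VPREB3 were not above background on any array. The mean of the B lymphocyte list was 5.82 to 7.06 log2, and 0 of 7 differed by 2-fold in any of the 6 comparisons. Of all genes 3.86% to 11.1% did so per comparison and direction. CD79A was at 11.49 and 11.02 in MDSL and at 7.11 to 8.69 elsewhere. Of 10 dendritic cell markers CD1A and CLEC10A were under background throughout. In treated SKM1 3 of the 10 were at least 2-fold higher (7.10% of all genes), CD1C (5.88 to 9.69), CD1E (6.55 to 7.82) and FCER1A (3.84 to 7.02). FCER1A also went from 13.27 to 15.68 in MDSL, where class II was lower after OR21, and LAMP3 from 6.62 to 9.50 in HL60. In SKM1 LAMP3 differed by -0.99. In the AZA resistant derivative CCR7 and LAMP3 were lower by 2-fold (5.11% of all genes), at levels under background there. The mean of the dendritic list ran from 5.03 to 6.32 over the arrays. Of 8 T lymphocyte markers CD3G, CD28 and CD8A were under background on all arrays, and the list mean ran from 4.25 to 5.70. With levels under background raised to it, 2 of the 8 were at least 2-fold higher in treated HL60 (CD3D and CD3E, against 8.73% of all genes). In treated MDSL 2 were (CD2 and TRAT1, against 6.08%) and in treated SKM1 0 (6.17%). In the AZA resistant derivative 1 was (CD3E, against 5.77%) and in the OR21 resistant one 0 (6.48%). In K562 CD3D was lower (8.89 to 6.98).

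Of 9 monocyte and macrophage markers, 3 were at least 2-fold higher in the AZA resistant derivative (7.04% of all genes) and 4 in the OR21 resistant one (7.69%). After OR21 it was 4 in HL60 (10.2%), 3 in SKM1 (7.10%), 1 in MDSL (6.62%) and 0 in K562 (5.05%). The matrix proteoglycan VCAN went from 5.19 in parental HL60 to 10.86 and 12.81 log2, FCGR1A from 11.06 to 14.37 and 14.01, and the receptor CSF1R from 6.92 to 8.59 and 9.40. The mean of the list was 7.25 in parental HL60, 8.73 and 9.19 in the derivatives, and 9.10 in treated HL60. In MDSL it was 7.13 in control and 7.65 in treated cells, and in SKM1 7.75 and 8.84, with CD68 higher by 3.63 and FCN1 by 2.66. The part of these markers in the class II values was not tested. Of the progenitor markers CD34 and IL3RA were highest in MDSL, CD34 at 14.68 and 13.71 and at most 6.82 elsewhere.

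Across the 10 arrays the members other than HLA-DOA varied together. Pearson's r with HLA-DRA was 0.98 for CD74, 0.97 for HLA-DPB1, 0.95 for HLA-DPA1 and HLA-DMA, 0.80 for CIITA and 0.11 for HLA-DOA. The 10 arrays share 4 lines, so these values are a description and have no p. The members were chosen for a common pattern on these same arrays, so nothing is read from how closely they vary together. The named genes closest to the mean of the standardised members were TMEM123 and HGSNAT, a lysosomal enzyme (r = 0.97 for both). Next were NIPAL2, TRIM22, MVB12B, UBE2Q2, UBA3 and CDYL2 (r from 0.96 to 0.97, n = 10 arrays). A high r did not require the MDSL direction of the members. In treated MDSL HGSNAT (12.84 to 13.1), NIPAL2 (11.66 to 11.96) and UBA3 (14.4 to 14.67) were higher. CDYL2 and TRIM22 were higher there too, while TMEM123, UBE2Q2 and MVB12B were lower. TRIM22, an interferon-inducible gene, was at 9.71 log2 in control and 10.00 in treated MDSL, 8.87 and 10.14 in SKM1, 6.53 and 6.63 in HL60, and 7.88 and 8.38 in the derivatives. MVB12B, a subunit of an endosomal sorting complex, was lower in treated (8.57) than in control MDSL (9.25), higher in treated SKM1 (7.07 and 8.13), and at 6.17 and 6.61 in the derivatives against 4.93 in parental HL60.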

How the data were processed

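The authors deposited linear intensities per probe set for 10 single-colour arrays of biotin-labelled total RNA, per the labels, with values from 4.25 to 405294. Neither their software nor their normalization is named (not given in the sources used here), and values were treated as already normalized. The log2 of each deposited intensity was taken without a pseudocount. A platform annotation named 17709 of 24351 rows, with 1 symbol each and several for 0, and left 6642 unnamed. RefSeq identifiers updated 0 symbols. For 20 genes with several probe sets the brightest was kept, which left 17687 genes. No dim genes were left out.

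OR21 was tested with limma 3.58.1 in R 4.3.3 (lmFit and eBayes, line as block, two-sided, Benjamini-Hochberg over all genes), on 4 arrays for HL60 and K562 and on 8 for the 4 lines. Replication came from lines alone, each a pair of arrays, and no label names separate cultures, so the p-values measure the spread between these lines. Comparisons with 1 array per condition have no p-value. On simulated data the fit on HL60 and K562 called no gene, so it is no test of the members. The fit on the 4 lines called 78 of 100 genes given a change of 2 log2 and 92 of 100 given 4 log2. Changes below 2 log2 were not simulated, so a list gene that did not pass is not shown to be unchanged. How few arrays there are limits the precision.

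The members and lists were chosen with earlier results of these data known. Genes were named by a rule: all members, up to 4 genes per pathway list with the largest mean difference over the lines and a level reaching the gene median, a few fixed genes (HLA-DOB, RFX5, IRF1, IRF8, SPI1, CTSS, CD86, NLRC5), and the 8 genes closest in pattern. JAK2, TAP1, FCGR1A, CTSC, CST3, MARCHF8, GBP1, CXCL9, CXCL10 and APOL1 were named after their values were seen. So were the genes at the ends of p ranges (TNFSF4, CD83, IRF4, IDO1) and the cell markers given with values. Counts with levels under background raised to it were added then too.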

Additional observations from a re-analysis of the deposited data

Results flagged for a closer look

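For 5 members the OR21 difference had opposite signs in MDSL and SKM1, past 2-fold in each. The SKM1 difference exceeded the MDSL difference by 4.58 log2 for CIITA, 3.64 for HLA-DPB1, 3.63 for HLA-DPA1, 3.26 for CD74 and 2.64 for HLA-DRA. The difference between the lines was not tested, since each line had 1 array per condition, and this contrast served to choose the genes. No line stood out from the other lines by Dixon's criterion for any of the 7 measured members. The genes were chosen for opposite differences in MDSL and SKM1, which leaves little room for 1 line to stand apart, so nothing is read from this.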

How the results depend on the processing

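Quantile normalization, median centring, the mean of probe sets, a floor at the background median and a pseudocount of 16 were tried on the 7 members in 6 comparisons. Of 210 member differences 209 kept their side of 2-fold, 0 that had passed 2-fold reversed, and 1 lost it: CIITA in the OR21 resistant derivative, at 0.99 log2 with the pseudocount. Only 20 genes had several probe sets, and the mean of probe sets left the member differences as they were, so its part of the 210 is no check. Scaling to the hybridisation spikes, added after the data were seen, changed none of the counts of members past 2-fold. Differences below 2-fold changed sign more readily. CIITA in HL60 became -0.10 under quantile normalization and -0.14 under median centring. In K562 CD74 changed sign under median centring, as did HLA-DMA, HLA-DOA, CD74 and CIITA with the floor, and HLA-DOA did so with the floor in both derivatives. The all-gene median shifted by more than 0.1 under median centring, to -0.22 in HL60, -0.17 in SKM1, -0.14 in K562, -0.18 in the AZA resistant and -0.22 in the OR21 resistant derivative, spike scaling to -0.81 in HL60 and 0.10 in K562, and the floor to 0.25 in MDSL, whose control array had the lower background. The count of 0 members in the test on HL60 and K562 says nothing about stability, because that fit called no gene on simulated data. With the HL60 and K562 arrays, 1 gene of all passed under quantile normalization and 1 with dim genes left out. A fit on all 8 arrays with own effects for MDSL and SKM1 gave the same mean differences as the fit on 4. It does so by construction and is no check. Over the 4 lines 7 genes passed, 3 with the floor, 3 with the pseudocount, 1 with no cell line block and from 0 to 5 with 1 line left out, the 0 without SKM1. No paired analysis by replicate number was possible because the labels give no replicate numbers. The line was the block.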

Other observations

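Among all genes, 6 of 17687 (0.0339%) were at least 2-fold lower in MDSL and higher in SKM1 after OR21 and also at least 2-fold higher in both derivatives. Of these, 4 were HLA-DRA, HLA-DPA1, HLA-DPB1 and CD74. The other 2, named after their values were seen, were IL13RA1, a receptor chain for interleukin-13, and PLXND1, a semaphorin receptor. IL13RA1 differed by -1.23 log2 in MDSL, 1.01 in SKM1, 3.85 in the AZA resistant and 3.91 in the OR21 resistant derivative. Unlike the class II genes it was also higher in treated HL60, by 3.33. PLXND1 differed by -2.25 in MDSL, 1.36 in SKM1, 1.46 and 2.09 in the derivatives and 0.56 in treated HL60.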
